A study of Homo sapiens with 30 samples.

Results

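Nuclear receptor genes were examined in the chromatin immunoprecipitation sequencing (ChIP-seq) peak lists of MDA-MB-231, a triple-negative breast cancer cell line. The 44 genes were taken from a fixed list of the receptor superfamily and located with GENCODE gene models on GRCh37, among 20098 protein-coding genes on the autosomes and chromosome X. The libraries of SAP30, SIN3A and SIN3B came from parental cells only. RNA polymerase II (Pol II), H3K4me3 and H3K9Ac were profiled in the parental line and in SAP30-KO1, a CRISPR/Cas9 SAP30 knockout line that per the study's methods was a mixture of several single-cell clones selected with puromycin. Each of these 9 groups had 2 replicate libraries, giving 18 peak lists. A further 12 of the 30 samples, labelled as input or histone H3, were not analysed here. No treatment, hormone or receptor ligand is named in the labels for either line.

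Nuclear receptors are transcription factors, most of which carry a zinc finger DNA-binding domain and a ligand-binding pocket for a steroid, retinoid, thyroid hormone, vitamin D metabolite, bile acid or lipid. Without ligand, retinoic acid and thyroid hormone receptors hold corepressors and histone deacetylases at their target genes, and ligand exchanges these for coactivators. SIN3A and SIN3B are scaffold proteins of a histone deacetylase corepressor complex, and SAP30 is one of its subunits. The values below concern this complex at the receptors' own genes, not at the DNA sites the receptors bind. Triple-negative cells are defined by the lack of estrogen receptor, progesterone receptor and HER2, so the family holds receptors that should be silent here next to receptors used by most cells.

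A summit is the highest point of a called peak, and it was assigned to a gene when it lay within 1000 bp of one of its annotated start sites. Its rank is its place by score within its own list, from 0% for the best peak to 100% for the weakest. The sequencing depth is unknown, so no interval that needs counts was computed, and scores were not compared between lists. The lists held between 10861 and 54622 summits, with SIN3A the shortest and H3K9Ac the longest, and at most 1.24% of the summits of a list fell on the identical base in the other replicate. Markers of mesenchymal-like cells, among them VIM and AXL, had H3K4me3 and Pol II at 8 of 8 promoters in both parental libraries. Luminal markers had H3K4me3 at 6 of 8 and Pol II at 2 of 8, and GATA3 and TFF1 had neither in any parental library. No SAP30 list of SAP30-KO1 cells was among those analysed, and promoter peaks do not report protein loss, so the knockout label was not checked here.

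From their textbook tissue distribution, 14 receptors were expected to be silent in these cells, 23 to be active and 7 were left between. These classes were set with earlier results of these data known. The silent class holds ESR1 and PGR together with receptors known mainly from liver and gut (NR1H4, NR1I2, NR1I3, HNF4A, HNF4G), nervous system, retina or other specialised tissue (RORB, NR2E1, NR2E3, ESRRB, ESRRG), muscle (RXRG) and steroid-producing tissue (NR5A1). The active class holds, among others, RARA, RARG, RXRA, RXRB, VDR, THRA, NR3C1 (the glucocorticoid receptor), the liver X receptors NR1H2 and NR1H3, and the orphan receptors of the NR2F and NR4A groups.

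Promoter DNA of 6 receptors is printed to show what lay under the extremes of the family. NR1D2 and NR3C2 had a promoter summit in all 18 lists. RORB had one in 15 lists although it was placed in the silent class. HNF4A, NR2E1 and ESRRB had none in any list. Each run is the 120 bases immediately upstream of a start site, 5′ to 3′ on the gene's own strand, read from GRCh37 where no annotated exon overlapped it. The start site was the one nearest the best SAP30 summit of replicate 1 for NR1D2, NR3C2 and RORB, which for NR3C2 is not the canonical one, and the canonical one for the genes without a peak. Capitals mark CpG dinucleotides.
NR1D2: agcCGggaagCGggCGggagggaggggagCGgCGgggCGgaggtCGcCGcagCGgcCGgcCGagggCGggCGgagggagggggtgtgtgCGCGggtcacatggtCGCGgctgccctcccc
NR3C2: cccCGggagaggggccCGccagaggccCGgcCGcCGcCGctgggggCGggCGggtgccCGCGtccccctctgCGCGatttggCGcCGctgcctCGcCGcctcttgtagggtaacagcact
RORB: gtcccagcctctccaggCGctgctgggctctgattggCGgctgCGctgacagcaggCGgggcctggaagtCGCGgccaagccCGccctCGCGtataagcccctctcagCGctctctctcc
HNF4A: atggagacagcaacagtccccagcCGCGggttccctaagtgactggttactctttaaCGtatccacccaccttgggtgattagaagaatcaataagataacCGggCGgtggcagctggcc
NR2E1: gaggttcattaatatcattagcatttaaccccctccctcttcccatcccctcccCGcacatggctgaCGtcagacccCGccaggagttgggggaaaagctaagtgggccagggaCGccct
ESRRB: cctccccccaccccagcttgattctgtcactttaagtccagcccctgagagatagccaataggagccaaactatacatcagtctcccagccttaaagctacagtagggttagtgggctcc

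These stretches lie at chr3:23986657-23986776 (plus strand) for NR1D2, at chr4:149365851-149365970 (minus strand) for NR3C2 and at chr9:77112131-77112250 (plus strand) for RORB. Those without a peak lie at chr20:42984219-42984338 for HNF4A, at chr6:108487106-108487225 for NR2E1 and at chr14:76842360-76842479 for ESRRB, all on the plus strand. NR1D2, NR3C2 and RORB held 17, 16 and 10 CpG dinucleotides in this window. HNF4A held 5, NR2E1 held 4 and ESRRB held 0. The count at the chosen start site did not separate all receptors by their peaks. With the start site nearest the best SAP30 summit of replicate 1, the window held 5 at RXRA and 3 at NR4A1. RXRA had a summit in all 18 lists and NR4A1 in 16. For both genes this start site is not the canonical one. In the longer window around the canonical start site used for CpG content below, RXRA held 65 CpG dinucleotides and NR4A1 held 36. Both were CpG-rich there by the ratio defined below, at 1.25 and 0.924.

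The receptors split by class in every list. SAP30 had a promoter summit in both libraries at 30 of the 44 receptors, against 61.2% of all protein-coding genes, and these were 21 of 23 expected active, 3 of 14 expected silent and 6 of 7 between. SIN3A had one at 17 receptors against 31.5% of all genes, with 14 active, 0 silent and 3 between. SIN3B had one at 26 receptors against 51.7%, with 20 active, 0 silent and 6 between. The corepressor scaffolds were therefore listed in both libraries at none of the 14 receptors expected to be silent, and each was listed once, at RORB in replicate 2.

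Pol II in parental cells was present at 30 receptors against 57.7% of all genes, as 22 of 23 active, 2 of 14 silent and 6 of 7 between. H3K4me3, the trimethyl mark of promoters, was present at 33 receptors against 63.8%, with 22 active, 5 silent and 6 between. H3K9Ac, an acetyl mark of active promoters and enhancers, was present at 31 receptors against 61.4%, with 22 active, 3 silent and 6 between. The share of silent minus active receptors was thus −69.9 percentage points at SAP30 summits and −81.4 at Pol II summits, and it was −59.9 with H3K4me3 and −74.2 with H3K9Ac. The classes are lists of genes and not replicates, so the gap is a description without a test.

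**Figure D1:**
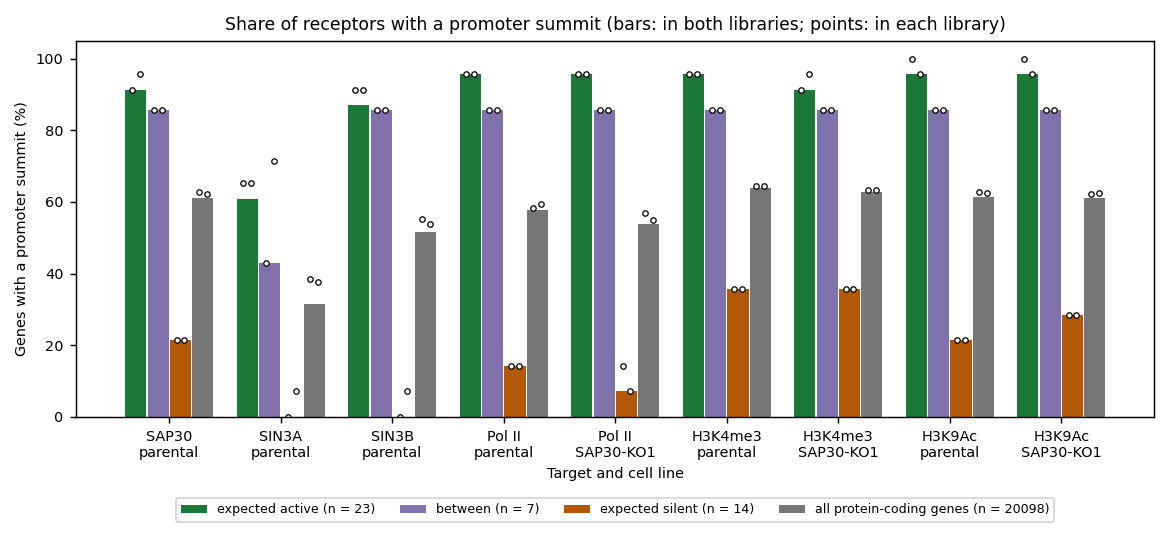
Percentage of receptors of each class and of all protein-coding genes with a promoter summit, by target and cell line, where bars count genes with a summit in both libraries and points give each library. The active class stands above all genes and the silent class below them for each of the 9 groups.

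**Figure D2:**
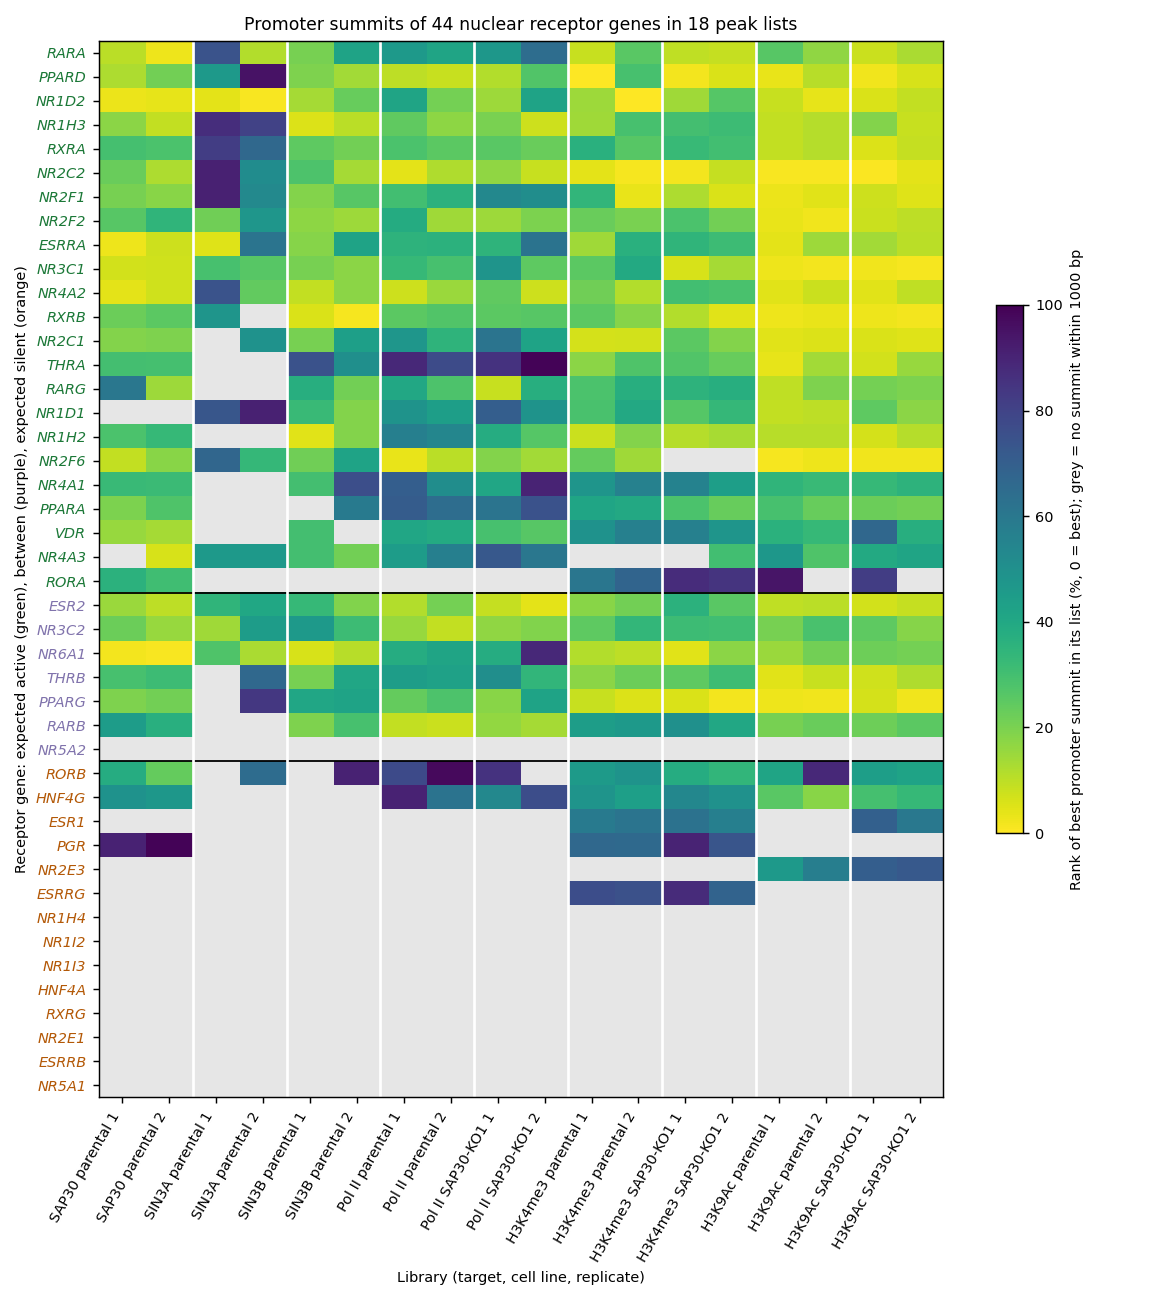
Rank of the best promoter summit (colour, 0% is the best of its list, grey is no summit within 1000 bp) for 44 receptors in rows and 18 libraries in columns, with rows grouped by expected class. Most expected-active rows are filled across the lists, while 8 expected-silent rows and NR5A2 are empty throughout.

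Receptors at 2 ends, with every target at the promoter or with none, were counted beside all genes, where both ends were also common. All 6 targets were present in both parental libraries at 15 receptors against 29.5% of all genes, namely 12 active and 3 between. No promoter summit in any of the 18 lists was found for 9 receptors against 32.2% of all genes. Among these were NR1H4, the bile acid receptor, and NR1I2 and NR1I3, the xenobiotic sensors of liver. HNF4A, a master factor of hepatocytes, NR2E1, a neural stem cell factor, and NR5A1, a regulator of steroidogenesis, were also empty, as were RXRG, ESRRB and NR5A2. NR5A2 was the one receptor outside the silent class without any promoter summit. An absent summit means only that no peak passed the caller's threshold within 1000 bp of a start site. At NR5A2 several targets were listed just beyond that limit. Its nearest parental summits lay 1650 and 1696 bp from a start site for H3K4me3, and 1703 and 1723 bp for H3K9Ac. They lay at 1610 and 1595 bp for Pol II and at 1578 and 1372 bp for SAP30.

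At the 29 receptors with Pol II, H3K4me3 and H3K9Ac in both parental libraries, a state found at 56.1% of all genes, SAP30 was nearly always listed. It was present in both libraries at 28 of the 29, against 98.3% of all genes in that state. The exception was NR1D1, a heme-binding repressor of the circadian clock. SIN3A was present at 16 of the 29 against 54.3%, and SIN3B at 25 of the 29 against 88.1%. For each of the 3 proteins the receptors' share was therefore close to that of other genes with the same marks.

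NR1D1 shows what the 1000 bp limit does. Its SAP30 summits lay 1120 and 1131 bp from its only annotated start site, inside an intron, and ranked at 0.531% and 0.557%, among the best of their lists. SIN3A was listed within the window at 73.2% and 90.9% and SIN3B at 32.2% and 18.6%. Beyond the limit both were also listed beside the SAP30 summits. SIN3A lay there at 1093 and 1217 bp, ranked at 3.60% and 17.0%, and SIN3B at 1237 and 1113 bp, ranked at 17.1% and 17.5%. Just inside the limit, the best parental H3K9Ac summits of NR2E3 lay 882 and 879 bp from a start site.

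SAP30, SIN3A and SIN3B were together at 15 receptors in both libraries, against 30.2% of all genes. They were the same 15 that carried all 6 targets. By mean rank over the 6 lists NR1D2, the paralog of NR1D1, came first at 8.06%. NR6A1, the germ cell nuclear factor, followed at 9.97% and NR3C1 at 17.9%. ESRRA, a regulator of mitochondrial genes, and NR4A2, an early response gene, were at 22.7% and 22.8%. ESR2, which encodes estrogen receptor beta, RARA and the angiogenesis-related orphan receptor NR2F2 came next at 25.4%, 26.8% and 26.9%. The best ESR2 summit of every list lay upstream of the gene, near its start site at position 64804830. The canonical ESR2 start site is another one, at 64761089.

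NR1D2 ranked at 2.85% and 3.67% for SAP30, at 4.08% and 0.921% for SIN3A, and at 13.5% and 23.3% for SIN3B. All 6 values were nearer to the top of their lists than to the middle. NR6A1 ranked at 1.64% and 1.10% for SAP30, at 27.7% and 12.6% for SIN3A and at 5.98% and 10.8% for SIN3B. These orders carry the spread of SIN3A, whose replicates differed by a median of 25.8 percentile points at the 17 receptors and 17.2 at all genes. For SAP30 the median difference was 4.79 points at the receptors and 4.26 at all genes.

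SAP30 and SIN3B without SIN3A in either library was the state of 5 receptors, THRA, RARG, NR1H2, NR4A1 and RARB, against 8.87% of all genes. NR1H2, the widely expressed liver X receptor, ranked at 4.64% and 18.6% for SIN3B and at 28.4% and 32.8% for SAP30. THRA, which encodes thyroid hormone receptor alpha, ranked at 74.9% and 50.3% for SIN3B. Its SAP30 summits were better placed, at 29.9% and 29.6%.

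Of the 6 retinoid receptor genes, whose products bind vitamin A derivatives, RARA and RXRA had SAP30, SIN3A and SIN3B in both libraries. RARA (chr17:38465432-38513895) ranked at 10.2% and 2.49% for SAP30, at 74.4% and 11.4% for SIN3A, and at 20.6% and 41.8% for SIN3B. Its SIN3A replicates lay 63.0 percentile points apart, the widest gap of any receptor for that protein. In replicate 1 the best SAP30 summit lay 27 bp downstream of the start site at position 38497640, and in replicate 2 it lay 93 bp downstream of another one at 38474537.

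RXRA (chr9:137208944-137332431), the obligate partner of retinoid, vitamin D and thyroid hormone receptors, also had a summit in all 18 lists. It ranked at 29.6% and 28.4% for SAP30, at 81.8% and 66.1% for SIN3A, and at 24.7% and 21.3% for SIN3B. H3K9Ac at RXRA ranked higher, at 9.16% and 11.3% in parental cells. Its paralog RXRB, which was listed in 17 of 18 lists, ranked at 5.53% and 1.20% for SIN3B, but 7 of those summits lay nearer to a start site of SLC39A7. The third paralog, RXRG, had none.

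VDR (chr12:48235320-48336831), the vitamin D receptor, had SAP30 at 15.3% and 13.3% and no SIN3A summit. SIN3B was listed in replicate 1 only, at 29.9%. Pol II ranked at 40.7% and 38.9% and H3K4me3 at 48.9% and 56.4%, both in the middle of their lists.

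NR3C1 (chr5:142657496-142815077), through which glucocorticoids act, had SAP30 at 6.94% and 7.40%, SIN3A at 29.2% and 25.8%, and SIN3B at 20.6% and 17.5%. H3K9Ac ranked at 2.36% and 1.93% in parental cells. Replicates differed by under 4 percentile points for each of these 4 targets. NR3C2, its mineralocorticoid relative, was also listed throughout, with SAP30 at 22.4% and 15.5%.

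Expected silence was not the same as an empty promoter. H3K4me3 was present in both parental libraries at 5 of the 14 silent receptors, ESR1, PGR, ESRRG, HNF4G and RORB. In 3 of them, ESR1, PGR and ESRRG, it stood without Pol II or H3K9Ac in any parental library, a state found at 1.83% of all genes and at 0 of 23 active receptors.

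ESR1 (chr6:151977826-152450754), which encodes estrogen receptor alpha, had an H3K4me3 summit in all 4 libraries. Its rank was 59.0% and 61.6% in parental cells and 62.4% and 56.9% in SAP30-KO1 cells. The 4 summits lay 557 to 635 bp downstream of the start site at position 152128817, in a coding exon. No SAP30 summit was nearer to any ESR1 start site than 26210 bp in replicate 1 and 39953 bp in replicate 2. The nearest parental Pol II summits were 26026 bp and 237955 bp from a start site of the gene.

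PGR (chr11:100900355-101000544), an estrogen target that encodes the progesterone receptor, had H3K4me3 at 66.2% and 65.9% in parental cells and at 90.2% and 73.6% in SAP30-KO1 cells. It also had SAP30 in both libraries, at 90.5% and 99.1%, near the end of the list. Of its 6 summits 2 lay nearer to the start of the antisense gene PGR-AS1, with which the peaks cannot be told apart. The nearest parental Pol II summits lay 336742 and 251194 bp from a start site of PGR. ESRRG, an estrogen-related orphan receptor, had H3K4me3 at 76.3% and 75.2% in parental cells, at 87.7% and 68.2% in SAP30-KO1 cells, and nothing else within 1000 bp.

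RORB and HNF4G went against their class. RORB, a retinoid-related orphan receptor of retina and brain, had H3K4me3 at 45.4% and 48.4%, H3K9Ac at 41.5% and 88.5% and Pol II at 77.6% and 97.5% in parental cells, with SAP30 at 38.1% and 23.5%. HNF4G, known from gut and kidney, had H3K4me3 at 48.4% and 43.5%, H3K9Ac at 25.5% and 17.8%, Pol II at 90.5% and 61.8%, and SAP30 at 48.9% and 47.1%. Pol II was in the weaker part of the list at both genes. NR2E3, a photoreceptor factor, had H3K9Ac alone, at 46.2% and 57.2%.

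Among silent receptors that had a summit, the median SAP30 rank was 48.9% and 47.1% by replicate, set by RORB, HNF4G and PGR. Active receptors had medians of 19.8% and 17.9%, near the 17.1% and 17.6% of all genes with a SAP30 promoter summit. For parental Pol II the medians were 39.2% and 32.1% for active receptors and 27.2% and 24.8% for all genes. Active receptors thus had weaker Pol II ranks than the typical listed gene, while their H3K9Ac medians of 8.48% and 10.7% were better than the 12.1% and 12.5% of all genes.

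The active class had its own exceptions. NR4A3, an inducible orphan receptor, was the one active receptor without H3K4me3 in both parental libraries. Its nearest parental H3K4me3 summits lay 2102 and 2090 bp upstream and ranked at 26.7% and 10.7%. SAP30 in replicate 1 had its nearest summit at 2242 bp and 2.41%, whereas replicate 2 had one within the window, at 245 bp and 6.05%, beside one at −2285 bp from the canonical start site and 5.71%. Pol II was listed within the window at 44.8% and 56.7%, and both parental libraries also had a better-ranked Pol II summit upstream. These lay at −2087 and −2102 bp from the canonical start site and ranked at 15.8% and 17.5%.

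RORA, which is placed with the active receptors, had no Pol II, SIN3A or SIN3B promoter summit in any list. SAP30 was present at 35.8% and 30.7%, H3K4me3 at 60.6% and 67.9%, and H3K9Ac only in replicate 1 of each line, at 94.2% in parental and 81.7% in SAP30-KO1 cells. No other active receptor lacked Pol II in every list.

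**Figure D3:**
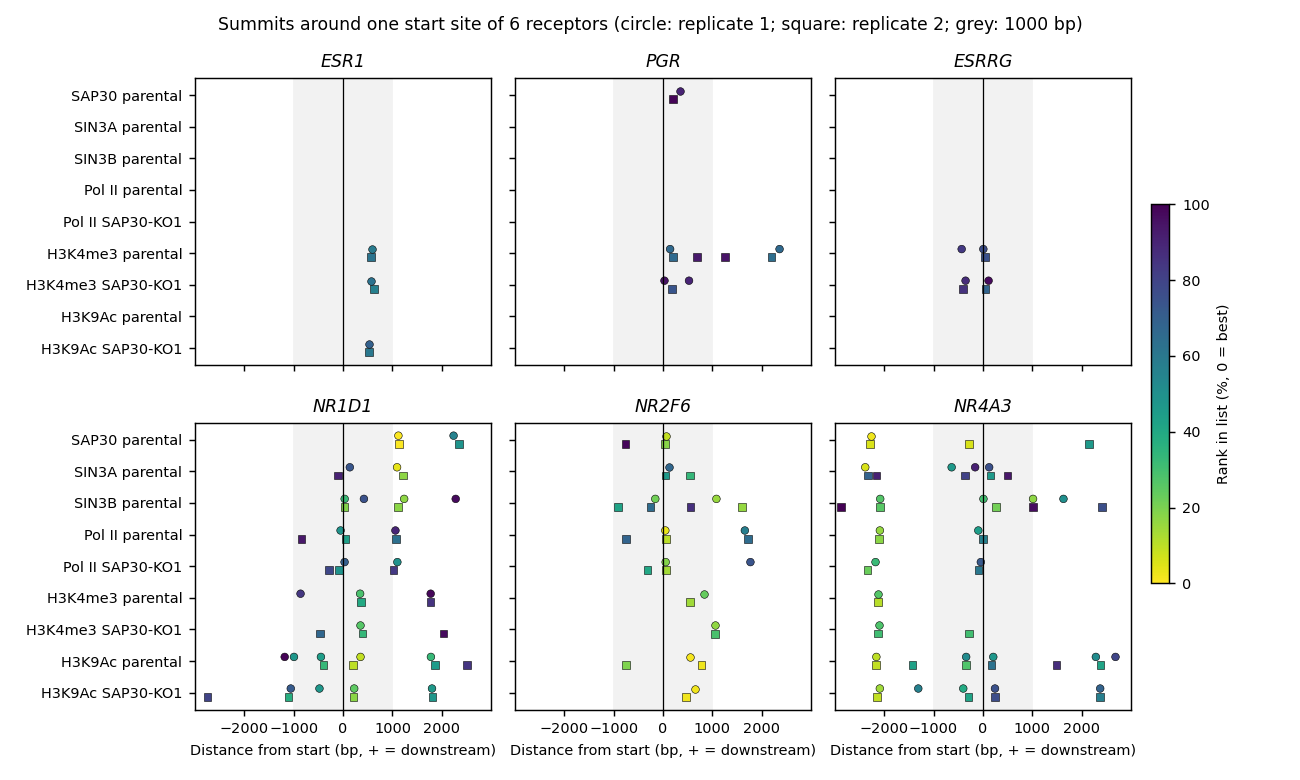
Summits within 3000 bp of one start site of 6 receptors, with distance in bp on the horizontal axis (positive is downstream), targets and lines in rows, circles for replicate 1, squares for replicate 2 and colour for rank. ESR1 and ESRRG carry H3K4me3 with little else, NR1D1 has its SAP30 summits 1120 and 1131 bp downstream, and the H3K4me3 summits of NR2F6 cross the 1000 bp limit between the lines.

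Position relative to the start site differed by target. Over the 119 best Pol II summits of the receptors in the 4 Pol II libraries, the median distance was 78 bp. For 131 H3K4me3 summits it was 242 bp, and 80.9% lay downstream of the start. SAP30 summits lay at a median of 243 bp, SIN3A at 155 bp and SIN3B at 156 bp. Between 89.7% of the SIN3A and 94.7% of the H3K4me3 summits were nearest to the receptor's own start. The rest sat mainly at shared promoters, with 12 of 18 NR1H3 summits nearer to ACP2, 11 of 18 NR2C2 summits nearer to FGD5-AS1 and 7 of 18 ESR2 summits nearer to a neighbouring gene.

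Sequence composition differed between the classes, which were set with earlier results of these data known. CpG content was measured in the 300 bases from 250 before to 50 after the canonical start site as the observed-to-expected ratio, and 0.6 was taken as a conventional limit for CpG-rich DNA. The median ratio over 19807 promoters was 0.777, and 67.7% were above the limit. Active receptors had a median of 0.924 with 20 of 23 above it, silent receptors 0.447 with 4 of 14, and the receptors between 0.507 with 3 of 7.

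Receptors without any promoter summit had a median CpG ratio of 0.348 with 2 of 9 above the limit. Those with a promoter summit in every list had 0.925 with 11 of 14. The 2 CpG-rich promoters without a summit were RXRG at 0.972 and NR2E1 at 0.806. At the other end NR1H3 had 0.226, RARA 0.492 and NR3C2 0.507 although each was listed 18 times. NR1H3 shares most of its summits with ACP2, and RARA and NR3C2 had SAP30 in replicate 1 at a start site other than the canonical one. HNF4G, with 0.107 at its canonical start, was likewise listed at another start site.

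**Figure D4:**
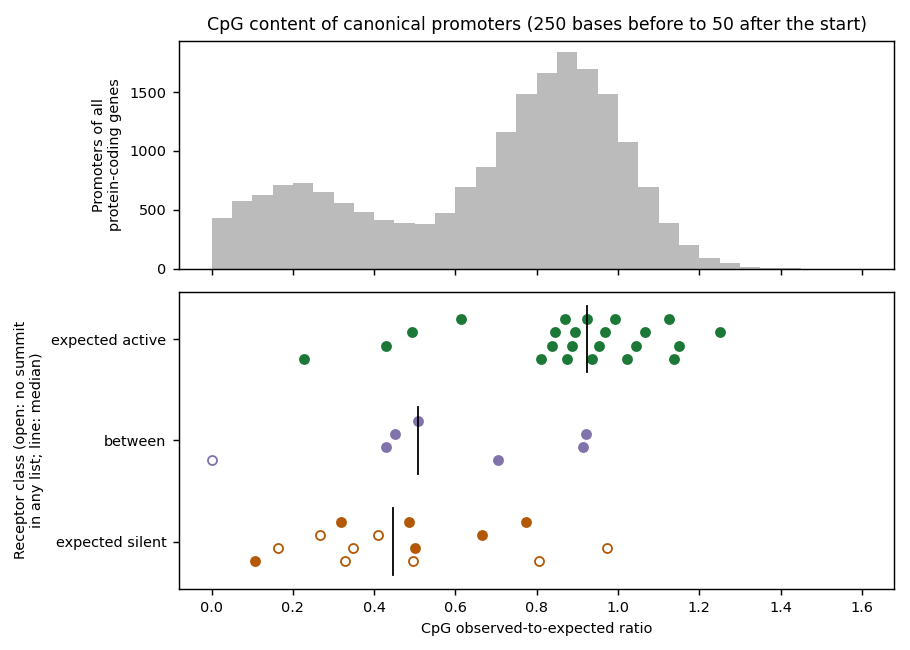
CpG observed-to-expected ratio of canonical promoters, as a histogram of all protein-coding genes above and as 1 point per receptor below, with open points for receptors without a summit in any list and a line at each class median. The median was 0.924 in the active class and 0.447 in the silent class.

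Short motifs were counted in the same windows on both strands. The GC box GGGCGG is bound by SP-family factors and overlaps CpG by its own letters. It was in 21 of 23 active, 6 of 14 silent and 2 of 7 between promoters, against 61.5% of all promoters. The E-box CACGTG was in 3 of 44 against 8.76%. The receptor half-site AGGTCA was in 5 of 44 against 11.2%, at ESR2, NR5A2, PPARG, RARA and RXRG. The letters are a description of the window and not of binding.

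The knockout comparison asked whether receptor promoters changed their place in the Pol II, H3K4me3 and H3K9Ac lists when SAP30 was deleted. In SAP30-KO1 cells Pol II was present in both libraries at 29 receptors against 53.9% of all genes, H3K4me3 at 32 against 62.8% and H3K9Ac at 32 against 61.1%. No receptor lost Pol II from both libraries, against 2.33% of all genes with it, and none gained it, against 0.337%. One receptor lost H3K4me3, against 1.43%, and none gained it, against 0.299%. None lost H3K9Ac, against 0.689%, and 1 gained it, against 0.908%.

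The H3K4me3 loss was at NR2F6, an orphan receptor that represses transcription. Its parental summits lay 837 and 537 bp from the start site at ranks of 23.8% and 14.2%. In SAP30-KO1 cells the nearest summits lay 1062 and 1056 bp away at 16.6% and 28.8%. The ranks of the lines overlapped and the SAP30-KO1 summits lay just beyond the 1000 bp limit. No receptor was lost with a window of 3000 bp.

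The H3K9Ac gain was at ESR1. In SAP30-KO1 cells H3K9Ac summits stood 524 and 530 bp downstream of its start site at 69.3% and 59.9%, in the weaker part of the list. The nearest parental H3K9Ac summits of ESR1 were 21134 and 21021 bp from a start site. The H3K4me3 summits present in all 4 libraries lay slightly farther downstream. Pol II was not listed within 1000 bp of an ESR1 start site in either line. Against a background of 0.908% of genes, a gain at 1 of 12 receptors at risk is a single event.

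Ranks were compared at receptors with a summit in all 4 libraries of a target. For Pol II both SAP30-KO1 ranks were worse than both parental ranks at 8 of 29 receptors against 24.2% of all genes, and better at 3 of 29 against 15.4%. For H3K4me3 they were worse at 8 of 32 against 28.1% and better at 4 against 11.5%. For H3K9Ac they were worse at 7 of 31 against 22.1% and better at 4 against 16.4%. The shares at receptors were near those of all genes for each target.

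The median rank change, SAP30-KO1 minus parental, was 4.61 percentile points at receptors and 1.48 at all genes for Pol II, where positive values are a worse rank. It was 1.02 and 2.09 for H3K4me3, and 1.34 and 0.309 for H3K9Ac. These medians are descriptions over the receptors and carry no test.

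Differences were tested with limma on normal scores of the ranks over all genes with a summit in the 4 libraries, in which a positive difference is a better rank in SAP30-KO1 cells. With Benjamini-Hochberg adjustment 0 of 10706 genes passed in the Pol II lists (0% called), 0 of 12531 in the H3K4me3 lists (0%) and 1 of 12048 in the H3K9Ac lists (0.0083%). The gene that passed, ARID1B, is not a receptor and was named after its value was seen. At an unadjusted p under 0.05 there were 929, 1011 and 1028 genes, among them 2 of 29, 5 of 32 and 3 of 31 receptors. Nothing in the labels says that replicates came from separate cultures, so these p-values measure the spread between these libraries, which may be technical.

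No receptor passed, and for each target the 3 non-overlapping receptors with the widest mean rank change are given. For Pol II, NR1H2 ranked at 56.8% and 54.2% in parental and at 37.9% and 26.2% in SAP30-KO1 cells, a difference of 1.31 ± 0.40 normal scores (SE, limma, adjusted p = 0.408). NR2F1, an orphan receptor of mesenchymal cells, ranked at 30.2% and 35.9% in parental and at 53.2% and 51.0% in SAP30-KO1 cells (−0.61 ± 0.39, limma adjusted p = 0.699). Its SAP30-KO1 replicate 2 summit lay at position 92920281, nearest to another start site. In the other Pol II libraries the NR2F1 summits lay between 92918844 and 92918928. NR4A3 ranked at 44.8% and 56.7% and at 72.3% and 60.3% (−0.11 ± 0.45, limma adjusted p = 0.954), and its sign turned when parental replicate 1 or SAP30-KO1 replicate 1 was left out.

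For H3K4me3, NR3C1 ranked at 25.1% and 39.2% in parental and at 6.24% and 13.4% in SAP30-KO1 cells, a difference of 1.25 ± 0.34 normal scores (limma adjusted p = 0.594). RORA ranked at 60.6% and 67.9% and at 87.2% and 85.0% (−0.56 ± 0.23, limma adjusted p = 0.653). PGR, with the values given above, differed by −0.30 ± 0.26 (limma adjusted p = 0.833). The SAP30-KO1 ranks of NR3C1 were nearer to the top and those of RORA and PGR nearer to the end of the list, and none of these differences passed.

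For H3K9Ac, NR2E3 ranked at 46.2% and 57.2% in parental and at 70.2% and 72.2% in SAP30-KO1 cells (−0.42 ± 0.31, limma adjusted p = 0.752). The NR2E3 summits lay at −882 and −879 bp from the start site in parental and at −497 and −421 bp in SAP30-KO1 cells. VDR ranked at 36.3% and 33.1% and at 66.6% and 37.3% (−0.43 ± 0.32, limma adjusted p = 0.760), and its SAP30-KO1 libraries lay 29.3 points apart. NR1D1 ranked at 8.99% and 10.1% and at 24.8% and 17.2% (−0.89 ± 0.31, limma adjusted p = 0.466). With 2 libraries against 2 an exact permutation test of 1 gene cannot go below p = 0.33.

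**Figure D5:**
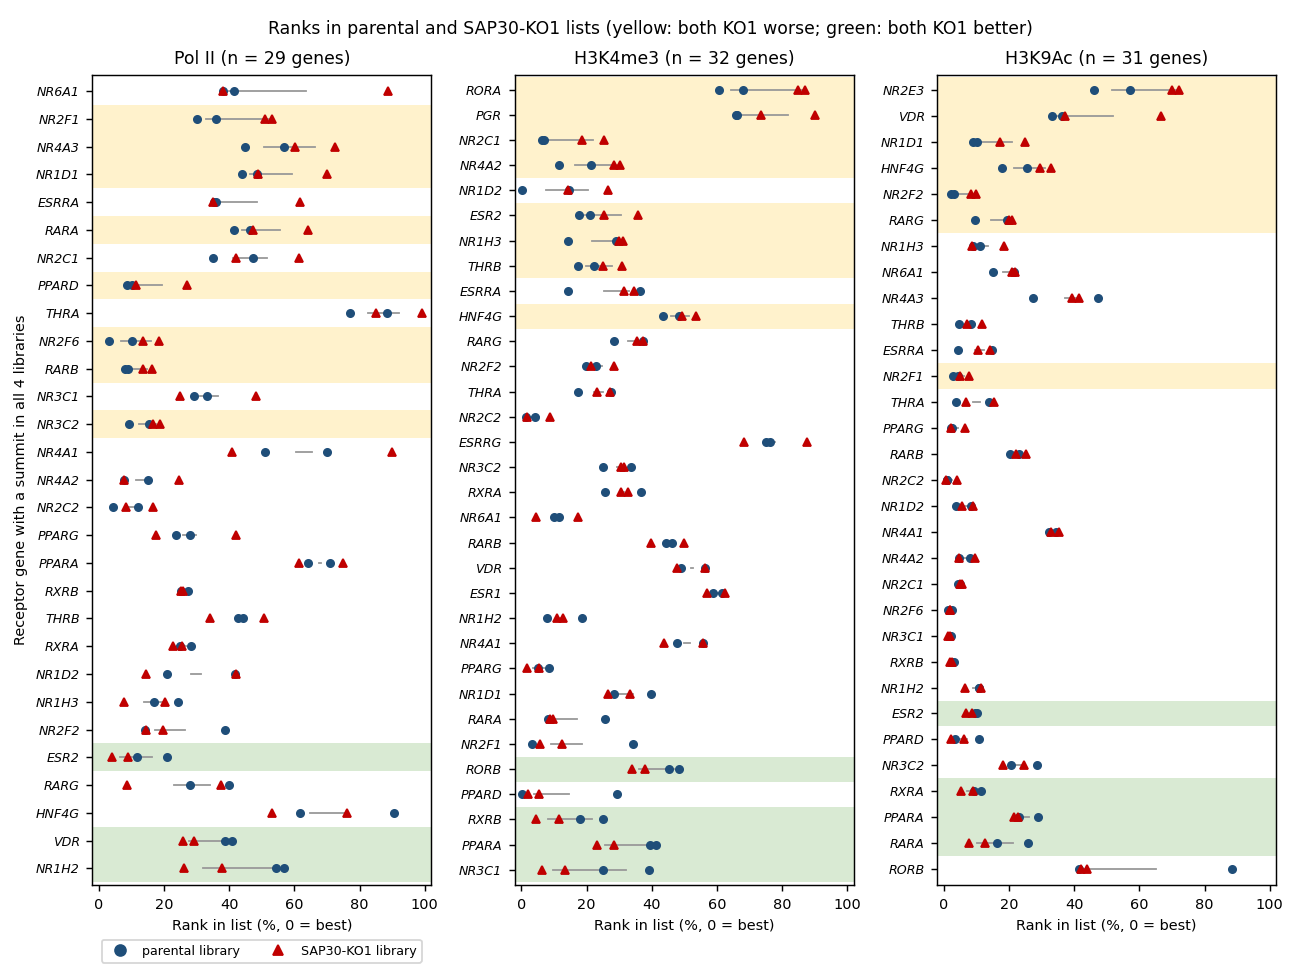
Ranks of receptor promoters in parental (circles) and SAP30-KO1 (triangles) lists for Pol II, H3K4me3 and H3K9Ac, with a grey line between the group means, genes ordered by the mean change, and yellow or green bands where both SAP30-KO1 ranks were worse or better. Bands mark 11 of 29, 12 of 32 and 11 of 31 receptors, and the symbols of the other receptors overlap between the lines.

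VDR was in the better group for Pol II and in the worse group for H3K9Ac. RARA was in the worse group for Pol II and in the better group for H3K9Ac, but its summits came from different start sites. Pol II in SAP30-KO1 replicate 2 was at position 38498299 and H3K9Ac in parental replicate 1 at 38498058. In the other libraries of these targets the summits lay between 38474550 and 38474730. NR2F1 and NR1D1 were in the worse group for Pol II and for H3K9Ac. For NR2F1 the summits of both targets came from different positions. Those of Pol II are given above. Its H3K9Ac summit lay at 92920839 in parental replicate 2 and between 92919821 and 92919864 in the other libraries. HNF4G was in the worse group and PPARA in the better group for H3K4me3 and H3K9Ac alike. ESR2 was in the better group for Pol II and H3K9Ac and in the worse group for H3K4me3.

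Genes that work with the receptors were counted from lists of 8 corepressor, 11 coactivator, 14 ligand-metabolism and 12 target genes, to be read against the shares of all genes given above, 61.2% for SAP30, 31.5% for SIN3A and 57.7% for parental Pol II. The corepressor genes, such as NCOR1, which docks unliganded receptors to histone deacetylase HDAC3, had SAP30, SIN3B, Pol II, H3K4me3 and H3K9Ac at 8 of 8 promoters and SIN3A at 6 of 8. The coactivator genes had SAP30 at 10 of 11 and SIN3A at 5 of 11.

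Ligand-metabolism genes had SAP30 at 5 of 14, SIN3A at 1, parental Pol II at 3, H3K4me3 at 6 and H3K9Ac at 6. ALDH1A1 and ALDH1A2, which make retinoic acid, and the deiodinase genes DIO1 and DIO3 had none of Pol II, H3K4me3 or H3K9Ac in parental cells. Target genes had SAP30 at 10 of 12 and parental Pol II at 9 of 12. The 3 targets with no Pol II were ABCG1, a liver X receptor target, and the estrogen-responsive genes GREB1 and TFF1. In SAP30-KO1 cells both Pol II ranks were worse than both parental ranks at 2 of 8 corepressor, 3 of 8 coactivator, 2 of 2 ligand-metabolism and 2 of 7 target genes with a summit in all 4 libraries, against 24.2% of all genes. They were better at 1 target gene and at 0 genes of the other lists, against 15.4%. EP300, a coactivator gene, gained Pol II in both SAP30-KO1 libraries, against 0.337% of all genes. In the same comparison H3K4me3 ranks were worse at 3 corepressor, 1 coactivator, 4 ligand-metabolism and 1 target genes, against 28.1%. They were better at 1, 3, 0 and 1, against 11.5%. For H3K9Ac they were worse at 2, 1, 0 and 2, against 22.1%, and better at 0, 3, 2 and 2, against 16.4%.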

How the data were processed

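ChIP-seq was carried out by the authors in MDA-MB-231 cells, with formaldehyde cross-linking and sonication. Their processing notes name FastQC 0.11.2, Bowtie2 2.3.3.1, Picard, MACS2 2.1.0 and hg19, without roles. Labels name input and histone H3 libraries. Which of them served as control for each list, and the peak caller options, are not given in the sources used here. The deposited files are 1-bp peak summits of single libraries with a −log10 q-value as score, lowest 1.30 (q-value 0.0499). Depth is unknown, which limits all presence calls.

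Start sites were those of basic protein-coding transcripts in GENCODE release 44 lifted to GRCh37, and each gene took its best-ranked summit within 1000 bp. Presence in a group means both libraries. Ranks of genes with a summit in all 4 libraries were turned into normal scores and compared with limma 3.58.1 in R 4.3.3 (Benjamini-Hochberg, threshold 0.05), without a replicate block, and both steps were tested on simulated data. Sequences were read with Python 3.11.15. Receptors described in full were RARA, RXRA, VDR, NR3C1, ESR1, PGR and those meeting rules on presence, loss or rank change. Windows of 500 and 3000 bp, canonical start sites, the better 50% of each list, either library, own nearest summits, whole-list percentiles, the block and leaving out each library were the alternatives. Members, classes and lists were chosen with earlier results of these data known.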

Additional observations from a re-analysis of the deposited data

How the results depend on the processing

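Of 72 alternative counts of receptors with a promoter peak, 70 stayed within 1.5 times the reported count. With the better-ranked 50% of each list SIN3A fell to 7 receptors and Pol II in SAP30-KO1 cells to 17. The gap between silent and active receptors kept its sign in all 32 alternatives. For SAP30 it was −61.2 points at 500 bp, −78.6 at 3000 bp, −64.0 with canonical start sites and −74.2 with either library, and −74.2 without replicate 1. For Pol II it was −88.5 at 500 bp, −84.2 with canonical starts, −73.9 in the better 50% and −77.0 with own nearest summits. For H3K4me3 it was −54.0 at 500 bp, −64.3 at 3000 bp, −49.7 with canonical starts, −68.3 in the better 50% and −55.6 with own nearest summits. For H3K9Ac it was −71.1 at 500 bp, −88.5 in the better 50%, −69.9 with own nearest summits and −78.6 with either library, and −78.6 without replicate 2. Receptors that lost or gained Pol II numbered 2 in the better 50% and 1 without replicate 1. Those that lost or gained H3K4me3 numbered 0 at 500 bp, 0 at 3000 bp and 2 without replicate 1, and for H3K9Ac 0 in the better 50%. The causes were not tested.

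Genes passing limma for H3K9Ac numbered 5 at 500 bp, 0 at 3000 bp, 0 with canonical starts, 0 in the better 50%, 2 with whole-list percentiles, and 4 to 6 with 1 library left out. For Pol II there was 1 at 500 bp, and 0 to 1 with 1 library left out. Where an arm kept 1 library, it was assumed to vary like the others. The Pol II difference of NR4A3 ran from −0.61 without parental replicate 2 to 0.38 without parental replicate 1, and was 0.20 without SAP30-KO1 replicate 1. Replicate numbers did not pair the samples, since deviations with the same number correlated at 0.016 (Pol II), −0.016 (H3K4me3) and 0.0041 (H3K9Ac). With the replicate number as a block, 43 genes passed for H3K9Ac.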

Other observations

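Away from start sites, the number of H3K9Ac summits differed widely among the longer receptor genes. RARB, the retinoic acid receptor often silenced in breast tumors, held 22 and 21 H3K9Ac summits farther than 1000 bp from its start sites in the parental libraries and 25 and 26 in the SAP30-KO1 libraries. THRB, which encodes thyroid hormone receptor beta, held 11 and 10 in parental and 8 and 12 in SAP30-KO1 cells. ESR1 held 8 and 7 in parental and 5 and 7 in SAP30-KO1 cells, although its promoter had no H3K9Ac summit in parental cells. RORA and RORB held 0 in each of the 4 libraries. Internal SAP30 summits numbered 8 and 12 in RARA, 8 and 10 in NR6A1 and 4 and 4 in ESR1. No test was made of these counts, which depend on the length of each list and on the length of each gene. RARB spans 910046 bp, ESR1 472929 bp, NR6A1 254037 bp and RARA 48464 bp, so the counts are not densities.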
